A study of Mus musculus with 12 samples.

Results

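The miR-148 and miR-152 family was followed in small RNA from gastrocnemius muscle, the large calf muscle, of young and aged mice. Its members were taken by name: mmu-miR-148a-3p, mmu-miR-148a-5p, mmu-miR-148b-3p and mmu-miR-152-3p, which are 4 of the 1900 mature miRNAs in the table. All 4 members could be tested. The remaining arms of the same hairpins, miR-148b-5p and miR-152-5p, are given beside them. Small RNA libraries came from male C57BL/6 mice with no treatment or genetic change, 6 young animals of 6 months and 6 aged animals of 24 months, with 1 library per muscle. The level of a miRNA is given in FPKM, a read count divided by the miRNA's own length and by the depth of its library. The table did not list reads, but its low values lay in steps of whole reads, which gave about 212196 to 6526695 mapped reads per young library and 120437 to 7761592 per aged library. Depth was uneven between the ages: 5 of 6 young libraries had at most 609777 mapped reads and 5 of 6 aged libraries had at least 1228036. Thus 1 read of a miRNA of 22 nucleotides was worth 5.86 FPKM in the deepest library and 377 FPKM in the shallowest, aged replicate 5.

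MiRNAs guide the silencing complex to messenger RNAs that pair with the seed, bases 2 to 8 of the mature miRNA. Members of a family with the same seed can act on overlapping sets of targets, among them the DNA methyltransferase Dnmt1 for this family. MiR-148a is known as a miRNA that promotes the differentiation of myoblasts. From each hairpin, the arm that is mostly loaded into the complex is called the guide and the other the passenger.

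The mature sequences are printed to show what the paralogs share, with the seed in capitals (RefSeq, GRCm38.p6, 5′ to 3′).
miR-148a-3p: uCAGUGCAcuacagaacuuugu
miR-148b-3p: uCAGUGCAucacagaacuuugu
miR-152-3p: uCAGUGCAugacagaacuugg
miR-148a-5p: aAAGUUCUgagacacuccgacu
miR-148b-5p: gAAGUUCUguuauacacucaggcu
miR-152-5p: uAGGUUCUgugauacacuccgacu

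The 3 guides shared the seed CAGUGCA, and among 1679 mature mouse miRNAs in the RefSeq table no other had it. Counted from base 1 at the 5′ end, miR-148b-3p differed from miR-148a-3p by C9U and U10C. MiR-152-3p differed from miR-148a-3p by C9U, U10G and U20G. Reads of the guides can therefore be told apart only by bases outside the seed. The passengers miR-148a-5p and miR-148b-5p shared the seed AAGUUCU with each other, and miR-152-5p had AGGUUCU.

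The hairpins are shown with both mature arms in capitals, since the comparison of arms below rests on them.
Mir148a: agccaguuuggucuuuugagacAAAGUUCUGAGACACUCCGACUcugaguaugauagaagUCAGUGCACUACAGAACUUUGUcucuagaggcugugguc
Mir148b: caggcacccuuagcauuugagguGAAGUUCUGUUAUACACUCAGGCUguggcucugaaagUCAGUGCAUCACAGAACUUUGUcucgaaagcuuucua
Mir152: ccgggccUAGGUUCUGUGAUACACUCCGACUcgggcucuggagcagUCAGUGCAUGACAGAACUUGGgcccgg

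Mir148a lies at chr6:51269812-51269910 on the minus strand (mm10), outside all genes of the GENCODE M21 annotation. Its nearest protein-coding gene was Nfe2l3, at a distance of 162760 bases. Mir148b lies at chr15:103285125-103285221 on the plus strand, within an intron of Copz1 on the same strand. Mir152 lies at chr11:96850393-96850465 on the plus strand, within an intron of Copz2 on the same strand. Copz1 and Copz2 encode related subunits of the COPI vesicle coat, so miR-148b and miR-152 lie in related host genes and miR-148a in none. Beyond the hosts, the nearest protein-coding gene on the lower side was Nfe2 for Mir148b (26722 bases) and Nfe2l1 for Mir152 (20425 bases), both relatives of Nfe2l3. On the upper side of Mir148b, Gpr84 lay nearer than Nfe2 (23014 bases), and Nfe2l3 itself lies on the upper side of Mir148a.

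In all 12 libraries miR-148a-3p had the highest level of the guides, miR-148b-3p the next and miR-152-3p the lowest. In young muscle their mean levels ranked 42nd, 68th and 133rd of 1900 miRNAs, and in aged muscle 51st, 72nd and 121st, with miRNAs that share reads ranked separately. The passengers ranked from 197th to 223rd in young muscle, where their levels overlapped one another. In aged muscle miR-152-5p ranked 160th, miR-148b-5p 211th and miR-148a-5p 238th. There the levels of miR-152-5p (626 to 1379.6 FPKM) lay wholly above those of miR-148a-5p (0 to 592 FPKM). The guides together held 0.156% ± 0.0340 (SD, n = 6) of all FPKM at 6 months. At 24 months they held 0.113% ± 0.0224 (SD, n = 6), and no test was made of this sum. The total counts shared reads more than once, which lowers these shares. With shared reads counted once, the aged minus young difference was -0.0484 percentage points instead of -0.0433.

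**Figure D1:**
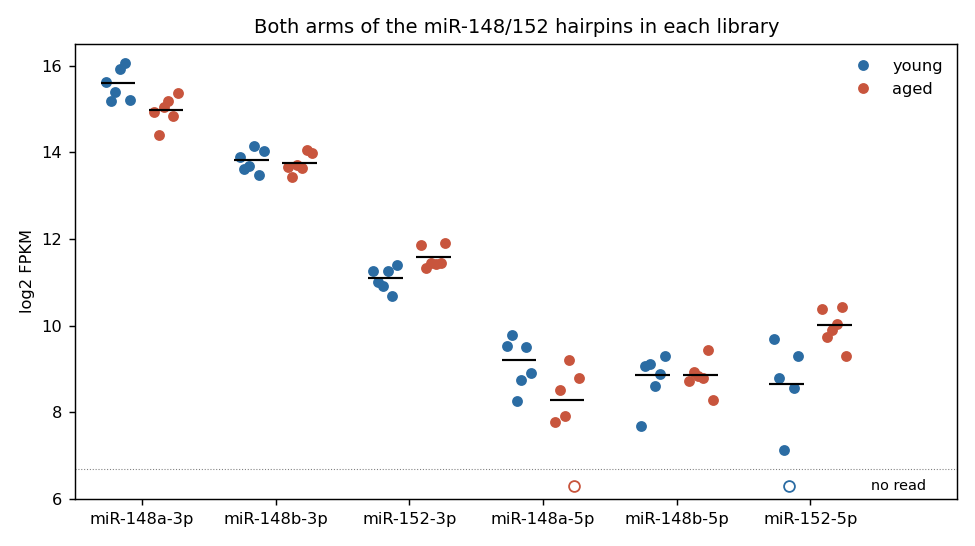
Level of both arms of each hairpin in log2 FPKM, 1 point per library (young blue, aged red), with the log2 of the group mean as a bar and libraries without a read as open circles. The miR-148a-3p points of 5 of 6 aged libraries lie below all young libraries, the miR-152-3p points of 5 of 6 lie above them, and those of miR-148b-3p overlap throughout.

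The question for the single members was whether each was higher or lower at 24 months than at 6 months. MiR-148a-3p was lower in aged muscle and passed the test, miR-148b-3p differed by less than the spread between libraries, and miR-152-3p was higher without passing. Levels were fitted as log2(FPKM + 48.2) with limma across 482 miRNAs above 0 in at least 5 libraries, with Benjamini-Hochberg adjustment over all 482. Of the members, 1 had an adjusted p under 0.05 (a fall), where 2.90% of all tested miRNAs did, 2.28% with a fall and 0.622% with a rise. At an unadjusted p under 0.05 there were 3 of the 4 members against 12.9% of all tested miRNAs, 2 of them with a fall (7.26% of all) and 1 with a rise (5.60%). None of the 4 had groups without overlap, where 2.28% of all tested miRNAs lay wholly lower and 0.415% wholly higher in aged muscle. On this scale the fold change between low levels above 0 is understated, but a library without a read can enlarge it. The change of miR-148a-5p was -1.12, and -0.61 without aged replicate 5, which had no read. That of miR-152-5p was 1.70, and 1.15 without young replicate 4, which had no read. The 3 members with an unadjusted p under 0.05 include both arms of 1 hairpin and are not independent.

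MiR-148a-3p had a lowest level of 37381, a median of 46799 and a highest of 67847 FPKM in young muscle. In aged muscle the lowest was 21469, the median 32345 and the highest 42055 FPKM. All 6 aged libraries were below the young median and 5 of them were below every young library, while aged replicate 6 lay above young replicates 2 and 6. The mean went from 49745 ± 12806 (SD, n = 6) to 32410 ± 7062 FPKM (SD, n = 6). The log2 change was -0.61 (SE 0.16, 95% interval -0.94 to -0.28), a level 34.4% lower, with a limma adjusted p of 0.0440. A larger change in either direction was fitted for 20.3% of the 482 miRNAs. Estimated reads ran from 77 in aged replicate 5 to 5753 in aged replicate 3.

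The call for miR-148a-3p lay close to the threshold. It kept an adjusted p under 0.05 in 6 of 24 other settings and lost it in 18, with adjusted p-values from 0.0184 to 0.211, while the log2 change stayed between -0.69 and -0.50. Leaving out single libraries lost the call in 9 of 12 cases (young replicates 1, 3, 4 and 5 and aged replicates 1 to 5), the weakest being without aged replicate 5 (limma adjusted p = 0.108) and without aged replicate 2 (limma adjusted p = 0.104). With depth as a covariate the change was -0.58 (limma adjusted p = 0.107). By the two-sided exact permutation test of this miRNA alone, p was 0.0108, with an adjusted p of 0.163 over all 482. The smallest p this test can give is 0.002165, and after adjustment it called none of the 482 miRNAs. Its lost call is therefore not particular to miR-148a-3p.

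**Figure D2:**
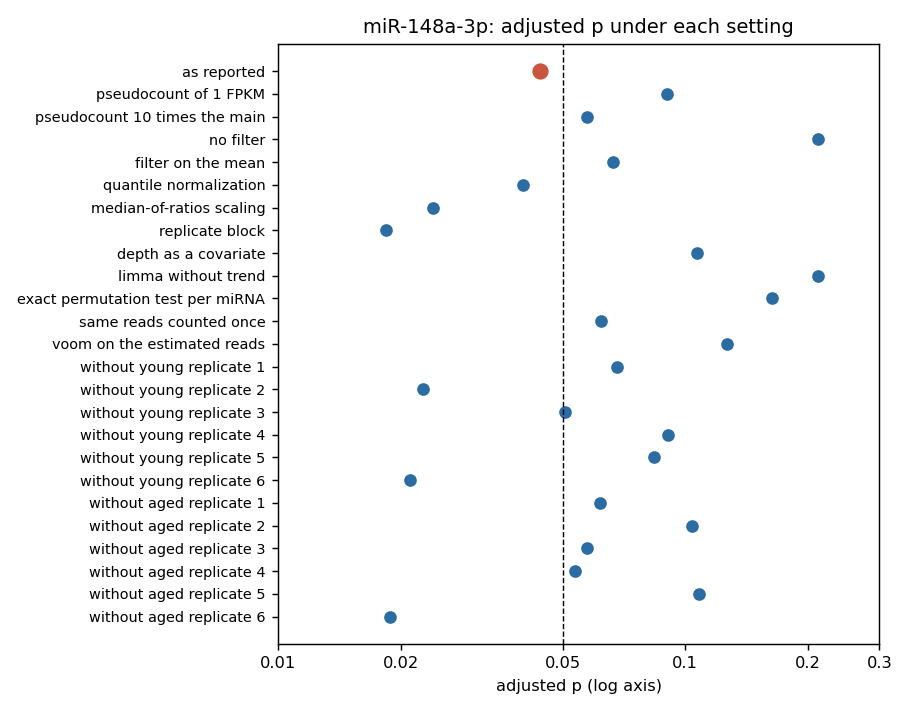
Adjusted p of the age change of miR-148a-3p (log axis) under the reported fit (red, 0.0440) and each of 24 other settings (blue). The dashed line marks 0.05, and 18 of the 24 lie to its right, up to 0.211. Among these is the exact permutation test, which called no miRNA at all.

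MiR-152-3p had a lowest level of 1641, a median of 2242 and a highest of 2684 FPKM in young muscle, and 2574, 2778 and 3822 FPKM in aged muscle. All 6 aged libraries were above the young median and 5 were above every young library, so the groups overlapped by aged replicate 2 and young replicate 6 alone. The log2 change was 0.47 (SE 0.19, 95% interval 0.08 to 0.87), with a limma adjusted p of 0.232. The two-sided exact permutation test of this miRNA alone gave p = 0.00433. It did not pass in any of 24 other settings, in which the change stayed positive and the adjusted p ran from 0.110 to 0.471. It was read 457 times in all in young muscle and 840 times in aged muscle, with only 7 reads in aged replicate 5. Young replicate 6 held 368 of the young reads and aged replicate 3 held 453 of the aged reads. Young replicates 3, 4 and 5 had 12, 11 and 15 reads.

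MiR-148b-3p had a lowest level of 11347, a median of 14153 and a highest of 18054 FPKM in young muscle, and 11113, 13126 and 16962 FPKM in aged muscle. The groups overlapped over nearly their whole range. The log2 change was -0.06 (SE 0.14, limma adjusted p = 0.908), and its 95% interval of -0.35 to 0.23 left out a fall as large as the one fitted for miR-148a-3p.

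MiR-148a-5p, the passenger of miR-148a, had a lowest level of 304, a median of 605 and a highest of 879 FPKM in young muscle. In aged muscle it was at 0 in replicate 5, and its median was 303 and its highest level 592 FPKM. All 6 aged libraries were below the young median. The log2 change was -1.12 (SE 0.53, 95% interval -2.22 to -0.02), with a limma adjusted p of 0.365. Only 99 young and 89 aged reads stood behind it. Young replicate 6 held 69 of the young reads, and young replicates 3 and 4 had 2 each. In aged replicate 5 the absence of a read allowed up to 1132 FPKM (3 reads, counting error only). Without that library the change was -0.61, and it ran from -2.09 with a pseudocount of 1 FPKM to -0.46 with one of 482 FPKM, none of them with a call.

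Of the arms outside the list, miR-152-5p was at 0 to 820.3 FPKM (median 413) in young muscle, against 626 to 1379.6 FPKM (median 997) in aged muscle. All 6 aged libraries were above the young median and 5 were above every young library. It changed by 1.70 on the log2 scale (SE 0.53, adjusted p = 0.0975 in limma), the same direction as miR-152-3p, and it rested on 121 reads in young and 314 in aged muscle. Of these, 99 came from young replicate 6 and 177 from aged replicate 3, and the remaining young libraries had 0 to 12 reads each. Without young replicate 4, which had no read, the change was 1.15 (limma adjusted p = 0.163). It was 2.71 with a pseudocount of 1 FPKM, 0.83 with one of 482 FPKM and 0.99 with voom on the estimated reads, without a call in any of them. MiR-148b-5p ran from 205 to 630.3 FPKM in young and from 313 to 689.8 FPKM in aged muscle, and its fitted difference was 0.04 (SE 0.38; adjusted p = 0.990 in limma). Both arms of a hairpin thus had fitted changes of like direction for miR-148a and miR-152 and changes near 0 for miR-148b.

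**Figure D3:**
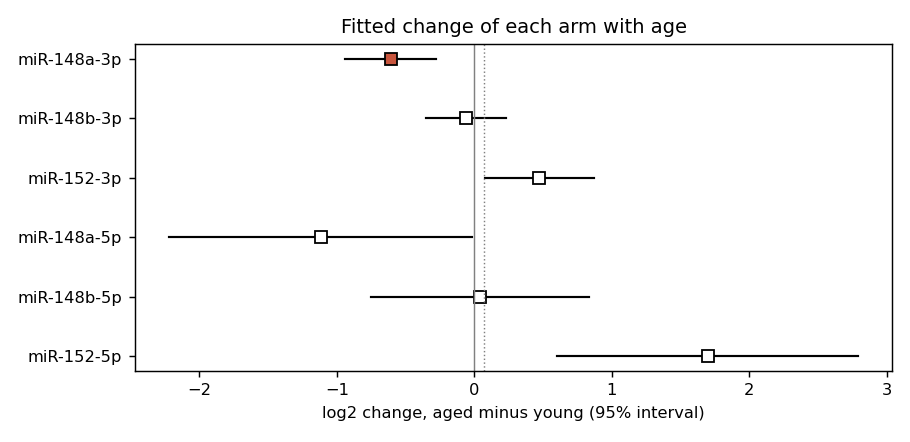
Fitted log2 change of each arm, aged minus young, with its 95% interval. The filled square (miR-148a-3p, -0.61) has an adjusted p under 0.05 and the open squares do not, and the dotted line is the median change of all 482 miRNAs tested (0.07).

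A fall in one paralog and none in another does not show that they differ, so the balance between paralogs was tested within each library. In each, the log2 ratio of 2 guides was taken with the pseudocount in both, in which the scaling of the library cancels but for the pseudocount. Each of the 3 ratios was lower in aged muscle by the two-sided exact permutation test over 924 splits. The 3 ratios are not independent, since on the log2 scale one is the sum of the others. Among all 23220 pairs of the 216 miRNAs above 0 in all libraries, 23.3% had an exact permutation p under 0.05 before adjustment.

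The ratio of miR-148a-3p to miR-152-3p changed most. MiR-148a-3p was between 13.8 and 40.2 times as high as miR-152-3p in young libraries, with a median of 21.1, and between 8.20 and 13.2 times as high in aged libraries, with a median of 10.6. Values did not overlap: each aged library was below each young one. Young replicate 6, the only young library with more than 609777 mapped reads, was the lowest of the young at 13.8. The mean log2 ratio went from 4.45 ± 0.518 (SD, n = 6) to 3.37 ± 0.278 (SD, n = 6), a difference of -1.08 with an exact permutation p of 0.002165, the smallest this design can give, and 0.00649 adjusted over the 3 ratios. As background, of the same 23220 pairs 6.68% had ratios that did not overlap between the ages and 9.05% had a larger difference. So such a separation was not rare among pairs of miRNAs.

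MiR-148b-3p was 5.99 to 7.19 times as high as miR-152-3p in young libraries and 3.47 to 6.02 times as high in aged libraries. The young libraries lay close together here, with an SD of 0.102 on the log2 scale against 0.260 in aged muscle. But young replicates 1 to 5 had only 31, 20, 12, 11 and 15 reads of miR-152-3p. Counting error at such reads is larger than an SD of 0.102, so this closeness is no result, and the spreads were not tested. The log2 ratio differed by -0.53 (exact permutation p = 0.00433, adjusted p = 0.00649), and all 6 aged libraries were below the young median. Aged replicate 5, with 7 reads of miR-152-3p, was the only aged library to reach the young range.

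MiR-148a-3p was 2.23 to 5.96 times as high as miR-148b-3p in young and 1.72 to 2.90 times as high in aged libraries. Young replicate 5 was the highest and young replicate 6 the lowest of the young libraries, and 4 aged libraries lay within the young range. The log2 ratio differed by -0.55 (exact permutation p = 0.0216, adjusted p = 0.0216), and all 6 aged libraries were below the young median.

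**Figure D4:**
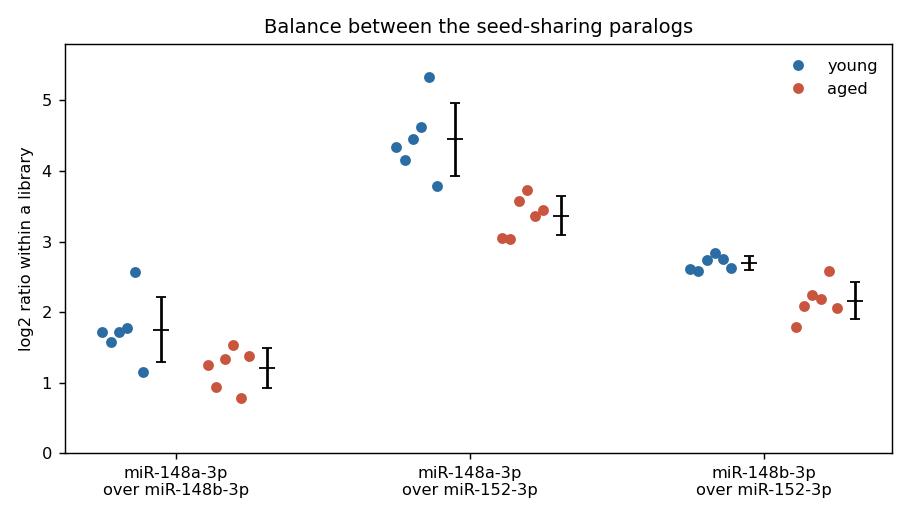
Log2 ratio of each pair of seed-sharing guides within a library, 1 point per library (young blue, aged red), with the mean ± SD beside the points. The ages separate for miR-148a-3p over miR-152-3p (means of 4.45 and 3.37) and overlap for the other ratios.

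The make-up of the shared seed moved accordingly. Of the summed FPKM of the guides, miR-148a-3p gave 74.2% ± 5.84 (SD, n = 6) at 6 months and 65.3% ± 4.23 (SD, n = 6) at 24 months. MiR-148b-3p gave 22.4% ± 4.96 and 28.4% ± 3.93, and miR-152-3p gave 3.42% ± 0.901 and 6.29% ± 1.02 (SD, n = 6 each). The share of miR-152-3p was 2.03% to 4.69% in young and 5.24% to 7.75% in aged libraries. This share is set by the ratios of the guides given above, so its separation is not a further result. The sum itself was 66454 ± 12893 FPKM (SD, n = 6) at 6 months and 49353 ± 8679 FPKM (SD, n = 6) at 24 months. These sums and shares over the members are a description without a test, and the 3 shares of a library depend on each other.

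**Figure D5:**
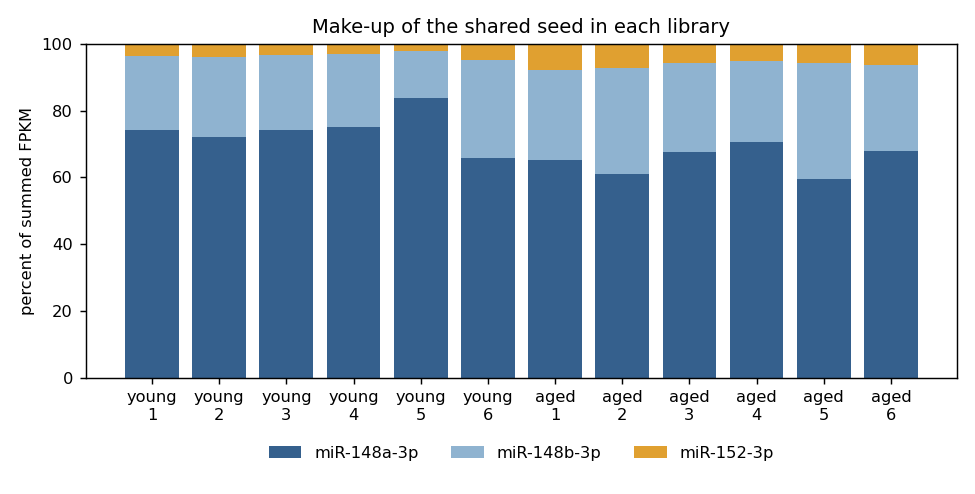
Share of each guide in the summed FPKM of miR-148a-3p, miR-148b-3p and miR-152-3p in each of the 12 libraries, in percent. MiR-148a-3p makes up 65.8% to 83.9% in young and 59.6% to 70.5% in aged libraries. The band of miR-152-3p is wider in every aged library than in any young one, which restates the ratios of the guides.

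The next question was whether both arms of miR-148a moved alike. The guide was 42.5 to 145 times as high as the passenger in young libraries, with a median of 85.7. It was 58.9 to 142 times as high in the 5 aged libraries with a passenger read, with a median of 94.4, so the ages overlapped throughout. The log2 ratio of 5p to 3p went from -6.32 ± 0.633 (SD, n = 6) to -6.82 ± 1.28 (SD, n = 6), a difference of -0.51 (SE 0.55, 95% interval -1.71 to 0.69) with a limma adjusted p of 0.637 over 130 hairpins, of which 0.769% passed and 13.1% had an unadjusted p under 0.05. No shift was detected, and the interval is wide. Without aged replicate 5, which had no read of the passenger, the difference was -0.03, and it ran from -1.48 with a pseudocount of 1 FPKM to 0.14 with one of 482 FPKM. For miR-152 the same ratio differed by 1.22 (SE 0.63, limma adjusted p = 0.427), by 0.64 without young replicate 4, which had no read of the passenger, and by 2.23 and 0.42 with pseudocounts of 1 and 482 FPKM. For miR-148b it differed by 0.10 (SE 0.30, limma adjusted p = 0.904). The 3p to 5p ratio of miR-152 had a median of 4.32 (2.97 to 13.8) in the 5 young libraries with a passenger read and of 2.84 (2.01 to 6.11) in aged libraries, below every value of miR-148a.

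Likeness to other miRNAs was measured by how steady the log2 difference between a pair was, as its SD over the 12 libraries, among 216 miRNAs above 0 in all of them. The libraries of both ages enter this SD, so a pair with unlike age changes has a larger SD for that reason, and the order partly restates the age changes. For miR-148a-3p the smallest SDs were those of miR-1249-3p (0.283), miR-186-5p (0.350) and miR-125b-2-3p (0.359), each of which had a fitted log2 change between -0.35 and -0.33. Its paralog miR-148b-3p stood 42nd in this order (SD 0.465) and miR-152-3p 159th (SD 0.690). For miR-148b-3p the steadiest was miR-191-5p (SD 0.195), followed by miR-24-3p and miR-3074-5p, which carry the same values (SD 0.223). For miR-152-3p they were miR-195a-5p (0.259), miR-204-5p (0.268) and miR-24-3p (0.284), and miR-148b-3p stood 18th. All of these SDs were well above 0.01, the limit used for rows that carry the same reads.

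Other miRNAs tied to myoblast differentiation in either direction were looked at by a list of 22, of which 21 could be tested. One passed with a rise and 0 with a fall in limma, where 0.622% and 2.28% of all tested miRNAs did. At an unadjusted p under 0.05 there were 3 rises and 0 falls, beside 5.60% and 7.26% of all. With shares this low, 0 called falls among 21 is no result about the list. The one that passed was miR-206-3p, a muscle-specific miRNA of regenerating fibers, which differed by 1.54 on the log2 scale (SE 0.39; adjusted p = 0.0296 in limma). Its change stayed between 1.04 and 1.86 in 24 other settings, but the call was lost in 13 of them, with adjusted p-values up to 0.198. These were a pseudocount of 1 FPKM, no filter, depth as a covariate, limma without trend, the exact permutation test, and fits without young replicate 1, 3 or 5 or without any of aged replicates 2 to 6. The exact permutation test called none of the 482 miRNAs. The median change of the list was 0.18, beside 0.07 over all 482 miRNAs. The muscle miRNAs miR-1a-3p and miR-133a-3p, also in the list, had changes of 0.17 and -0.17 (limma adjusted p = 0.651 and 0.679).

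Muscle tissue also holds blood, vessels and connective tissue, and fewer cells of a type and less RNA per cell cannot be told apart in these libraries. The muscle miRNAs miR-1a-3p, miR-133a-3p, miR-133b-3p and miR-206-3p summed to 4594296 to 7378276 FPKM in young and 4496021 to 5333742 FPKM in aged muscle. Of the markers of other cells none passed in limma, with 0 of 3 for red cells, 0 of 5 for white cells, 0 of 2 for endothelium and 0 of 5 for smooth muscle and fibroblasts, and at an unadjusted p under 0.05 there were 2 falls and 1 rise among them. Of all tested miRNAs 2.90% passed and 12.9% had an unadjusted p under 0.05, so few calls in lists of this size are near the background. The rise was that of miR-155-5p, which also stands in the myoblast list. The falls were those of the red cell marker miR-144-3p (-0.77, limma adjusted p = 0.189) and the smooth muscle marker miR-145a-5p (-0.43, limma adjusted p = 0.0975). The red cell miRNAs summed to 5828 to 10486 FPKM in young and 3022 to 10507 FPKM in aged muscle, and the white cell miRNAs to 8740 to 20492 and 11923 to 26096 FPKM. The endothelial miRNAs summed to 307743 to 455685 and 336491 to 382329 FPKM, and those of smooth muscle and fibroblasts to 3946661 to 5895763 and 4837328 to 6148742 FPKM. The last sum was mostly miR-143-3p, with a mean of 4908544 FPKM in young and 5471142 FPKM in aged muscle. That of the muscle miRNAs was mostly miR-133a-3p, with means of 5367290 and 4709737 FPKM. None of these markers was at 0 in all libraries, and their part in the changes of the family was not tested.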

How the data were processed

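By the study's methods, the authors removed adaptor sequence, aligned to the mouse genome (mm10) using BWA with its defaults, and then derived an FPKM per mature miRNA of miRBase. The submitters' processing notes name TopHat2, with no role given. The deposited values are log2 of FPKM with 2 decimals, and 0 stands for no read; how reads that map to several places were assigned is not given in the sources used here. Here the log was undone, genomic copies of one miRNA were summed, and reads were estimated from the steps of the low values with RefSeq lengths (of 2987 values below 25 reads, 99.2% were whole to within 0.15). A length of 22 nucleotides was assumed for miRNAs without a RefSeq match, and 1603 of 1900 matched. The pseudocount of 48.2 FPKM was set from the lowest nonzero value of each library, taking the median of the 12. Tests used limma 3.58.1 (eBayes with trend) in R 4.3.3, two-sided, and exact permutation in Python 3.11.15 with NumPy 2.4.6 and pandas 2.3.3. P-values measure the spread between libraries of separate animals. Alternatives changed the pseudocount, filter, scaling, moderation, test, covariates, shared rows and libraries. The named miRNAs were the members, the passengers of the same hairpins, the 3 most alike by SD for each guide, and list members that passed, that are muscle markers or that a result turns on. The members and lists were chosen with earlier results of these data known.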

Additional observations from a re-analysis of the deposited data

Results flagged for a closer look

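Of 32 groups of 6 libraries checked with Dixon's test, 4 held a library far from the other 5, where chance gives about 1.6. The groups are not independent, since the ratios are built from the levels, so these counts do not show an excess. The level and the arm ratio flagged in aged replicate 5 rest on the same absent read. In aged replicate 5, the shallowest library, miR-148a-5p had no read, so its log2(FPKM + 48.2) was 5.59 where the other 5 had 8.06 to 9.32, and the log2 ratio of 5p to 3p of miR-148a was -9.24 against -6.87 to -5.70. In aged replicate 6 the log2 ratio of 5p to 3p was -5.49 for miR-148b, where the remaining aged libraries had -4.79 to -4.39, and -2.52 for miR-152, against -1.55 to -0.99. The passengers of that library rested on 10 and 20 reads.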

How the results depend on the processing

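The log2 change of miR-148a-3p lost its call with a pseudocount of 1 FPKM (-0.61, limma adjusted p = 0.0902) or of 482 FPKM (-0.60, 0.0574), with no filter (-0.61, 0.211), a filter on the mean (-0.61, 0.0665), depth as a covariate (-0.58, 0.107), limma without trend (-0.61, 0.211), the exact permutation test (-0.61, 0.163), shared reads counted once (-0.61, 0.0620) and voom on the estimated reads (-0.60, 0.127). Leaving out 1 library each gave -0.69 to -0.50. It kept the call with quantile normalization, median-of-ratios scaling and the replicate block. The number of miRNAs called, 14, became 6 with a pseudocount of 1, 7 with no filter, 8 with a filter on the mean, 8 with depth as a covariate, 6 with shared reads counted once and 0 by the exact permutation test (66 at an unadjusted p under 0.05), and ran from 6 to 15 with 1 library left out. With 6 libraries per group the exact test gives no p below 0.002165. Adjusted over 482 miRNAs, it can therefore call any only where many reach that value. The causes of the other differences were not tested. Changes near 0 turned sign: miR-148b-3p ran from -0.13 to 0.01 with 1 library left out (0.00698 without young replicate 4, 0.000965 without aged replicate 2), and miR-148b-5p from -0.15 to 0.14 (-0.15 without young replicate 1, -0.07 without aged replicate 5), with -0.26 under voom. The arm ratio of miR-148a was 0.14 with a pseudocount of 482 FPKM, -1.48 with 1 FPKM, -0.81 with depth as a covariate and -0.73 to -0.03 with 1 library left out. Settings for miR-206-3p and the other arm ratios were added after seeing the data, and the arm ratio of miR-148b ran from -0.11 (without young replicate 1) to 0.24.

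The paralog ratios kept direction and side of the threshold in all other settings run, except that of miR-148a-3p to miR-148b-3p under the replicate block (-0.55, exact sign-flip permutation, adjusted p = 0.0625). The other ratios had an adjusted p of 0.0469 in that sign-flip test. With 6 pairs it can give only few p-values, so kept and lost calls there say little. With 1 library left out they ran from -0.67 to -0.39 for miR-148a-3p over miR-148b-3p, -1.21 to -0.91 over miR-152-3p, and -0.62 to -0.46 for miR-148b-3p over miR-152-3p. Depth as a covariate was not run for these ratios, so depth was not adjusted for in them. Without the 2 deepest libraries, young replicate 6 and aged replicate 3, miR-148a-3p over miR-152-3p differed by -1.26. That setting left only young libraries of at most 609777 mapped reads. Replicate numbers did not pair the libraries: the correlation of same-numbered deviations ran from -0.094 to 0.095, and 0 of 6 young libraries matched best the aged library of their number. The block left the number called at 14. MiR-148a-5p did not pass the filter on the mean and has no value there. Depth limits the passengers most.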
